A study of Mus musculus with 6 samples.

Results

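The 9 genes described here are genes of B lymphocytes: Ms4a1, Cd79b, Cd72, Cd37, Btla, Bank1, Pou2af1, Cr2 and Vpreb3. They were taken by name, with every probe that carries the name and is not a control, which gave 13 of 39429 probes and 9 of 31829 gene names on the array. Expression was measured in the non-tumour part of the liver of 6 male C57BL/6 mice, an inbred strain, that were 5 weeks old at the start. The control group (3 mice) ate a control diet, and the restricted group (3 mice) ate a diet with moderately restricted carbohydrate, to which the text of the series, but not the sample labels, adds phytochemicals that mimic calorie restriction. The titles of both groups call the diet supplemented without saying with what. Sample labels give 1 week of feeding before the injection and 5 weeks of diet, and the series text gives 2 and 4 weeks. Mice of both groups received by hydrodynamic injection, a rapid tail vein injection that delivers DNA to hepatocytes, transposon DNA with HrasG12V (an activated human RAS oncogene), shp53 (a hairpin RNA against p53) and GFP4, so no group is free of the liver cancer model, and the labels name no promoter for the vector. Each mouse gave 1 single-colour array.

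B cells recognise antigen through a membrane immunoglobulin whose signal passes through the CD79A and CD79B chains. Co-receptors set how strong that signal becomes: CD21, encoded by Cr2, binds complement fragments on antigen and amplifies it, and CD72 and BTLA dampen it. In liver, B cells lie beside many Kupffer cells (the macrophages of the liver), T cells and natural killer cells.

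Values are log2 signals relative to the 75th percentile of the same array, so 0 is that percentile itself, and differences are restricted minus control. Levels of different probes are not comparable with each other. A probe was called where limma's adjusted p, over 24234 tested probes, was under 0.05. The arrays agreed less between diets (correlation across probes 0.926 to 0.948) than within a diet (0.975 to 0.988), the 75th percentile of signal was 287.4 to 573.6, and the median probe was 0.12 higher in the restricted group. The control mice and restricted mouse 1 shared slide 1, and restricted mice 2 and 3 were on slide 2, which was scanned separately.

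On the restricted diet, 5 of the 9 genes had a probe that fell: Cd72, Cd37, Btla, Bank1 and Pou2af1, by 0.97 to 2.24 on the log2 scale. Vpreb3, a gene of the surrogate light chain family, rose by 2.26. Ms4a1 (CD20), Cd79b and Cr2 did not pass the test. By probe, 7 of 13 were called lower (53.8%) and 1 higher, where 26.6% of all tested probes were called, 12.6% lower and 14.1% higher. All of the 7 but A_55_P2118570 of Cd37 were at least 2-fold lower by their fitted difference, beside 10.3% of all tested probes. The count of 7 was 2 with normexp background correction and 4 without a background filter or when control mouse 2 or 3 or restricted mouse 1 or 2 was left out. Control and restricted mice had separate ranges in 7 probes that were lower and in 1 that was higher, against 18.6% and 25.7% of all tested probes. All 13 probes were tested, and 10 were well above background on all 6 arrays. The median difference of the 13 probes was -1.08, beside 0.12 for all tested probes. Since the genes were chosen with results of these data known, these shares describe them and are no independent evidence.

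**Figure D1:**
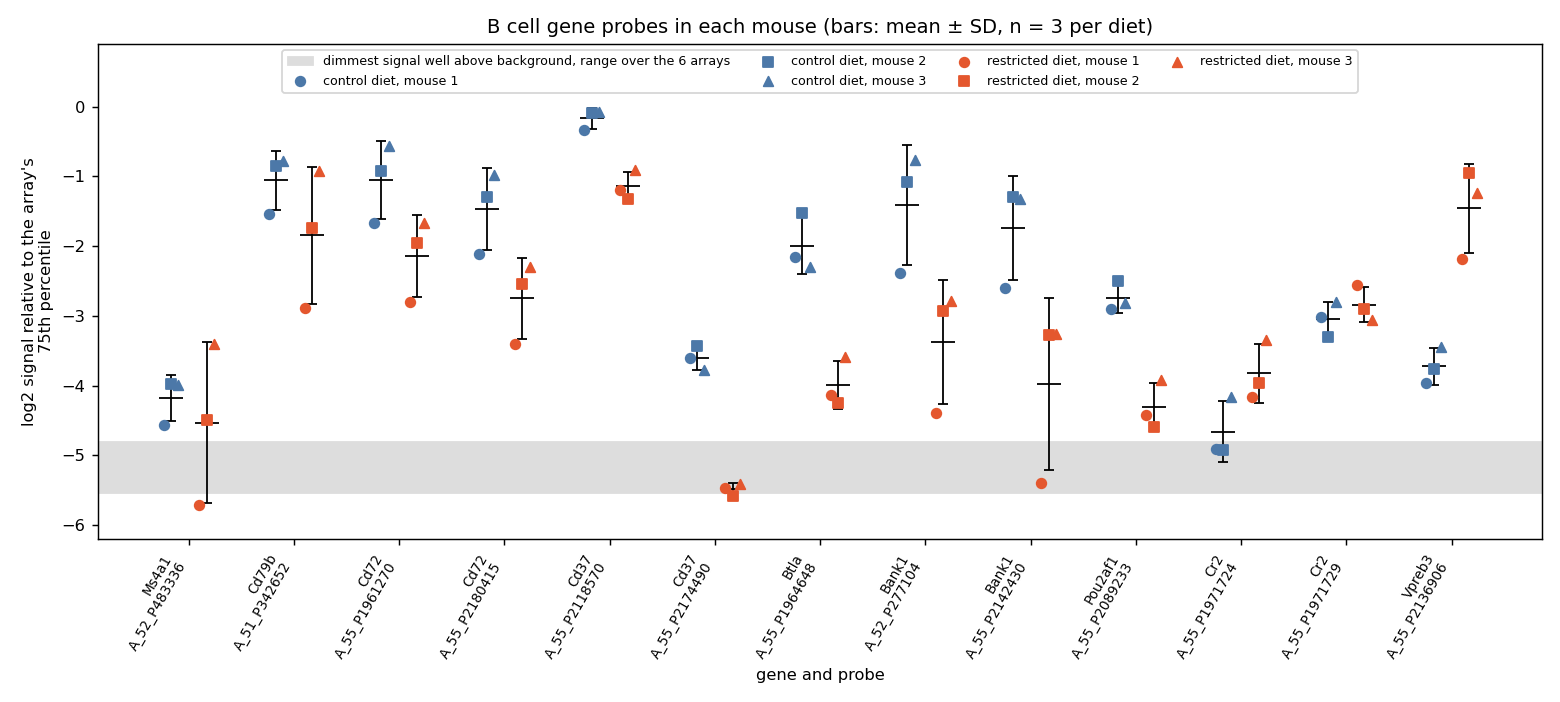
The log2 signal of each of the 13 probes relative to the array's 75th percentile (vertical axis) in the 3 control and 3 restricted mice, with mean ± SD bars and, in grey, the dimmest signals that were well above background. For Btla, Pou2af1, Bank1 and both Cd37 probes every restricted mouse lay below every control mouse, and for Vpreb3 every restricted mouse lay above.

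Of the antigen receptor and its surface partners, Cd79b, the signalling chain of the B cell receptor, was read by 1 probe (NM_008339, mm9 chromosome 11, 106172780 to 106172839). Its log2 signal was -1.54, -0.85 and -0.77 in control mice 1, 2 and 3 and -2.88, -1.74 and -0.92 in restricted mice 1, 2 and 3. The groups overlapped, since restricted mouse 3 was above control mouse 1. Control mice averaged -1.06 ± 0.42 and restricted mice -1.85 ± 0.99 (SD, n = 3 each), which differ by -0.79 ± 0.49 (SE, limma adjusted p = 0.278). Within slide 1, where restricted mouse 1 was the only restricted mouse, it was -1.82 (limma adjusted p = 0.0446), and without that mouse it was -0.27.

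Ms4a1 encodes CD20, a membrane protein of mature B cells and the one most used to stain them. Its probe (NM_007641, mm9 chromosome 19, 11325367 to 11325426) read -4.56, -3.98 and -3.99 in the control mice and -5.71, -4.49 and -3.40 in the restricted mice. The restricted mice held both the lowest and the highest value, and restricted mouse 1 was not well above background. The difference was -0.36 ± 0.54 (SE, limma adjusted p = 0.663). It reversed when restricted mouse 1 was left out (0.23) and under normexp background correction (0.21).

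Cr2 encodes CD21, the complement receptor of B cells and follicular dendritic cells. The probe A_55_P1971724 (NM_007758, mm9 chromosome 1, 196963012 to 196963071) read -4.90, -4.92 and -4.16 in the control mice and -4.16, -3.96 and -3.35 in the restricted mice. A_55_P1971729 (chromosome 1, 196965532 to 196965591) read -3.02, -3.30 and -2.81 against -2.56, -2.90 and -3.06. Both were higher on average in the restricted group with overlapping ranges, the first because control mouse 3 reached restricted mouse 1. Their differences were 0.84 ± 0.30 (SE, limma adjusted p = 0.0841) and 0.20 ± 0.22 (limma adjusted p = 0.525). The first was called under 5 of 17 alternatives, among them median scaling (limma adjusted p = 0.0338) and quantile normalization (0.0382). The probe of C3, the complement protein whose fragments CD21 binds, was saturated on all 6 arrays and gives no difference.

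Among the members, the inhibitory receptor Btla and the tetraspanin Cd37 fell, and the inhibitory receptor Cd72 fell by only 1 probe of a pair. Cd72 and Cd37 each have a pair of probes, and the first 30 bases of each 60-base probe are shown because the pairs differ in kind: the Cd72 probes overlap by 49 bases, so they are near repeats of 1 measurement, while the Cd37 probes lie apart. Capitals mark the run that the shown parts of the Cd72 probes share.
Cd72 A_55_P1961270: ATGGCCCGGAGCCAGCCAGgcagttttatt
Cd72 A_55_P2180415: tgagtggatggATGGCCCGGAGCCAGCCAG
Cd37 A_55_P2118570: tctgtctgccacctcccacatgacacctca
Cd37 A_55_P2174490: tggctgcacaacaatatcatctccatagtg

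Cd72, a C-type lectin-like receptor that recruits a phosphatase and dampens B cell receptor signals, fell by its probe A_55_P2180415 (NM_001110320, mm9 chromosome 4, 43460607 to 43460666). This probe read -2.11, -1.29 and -0.97 in the control mice and -3.40, -2.54 and -2.30 in the restricted mice. The ranges did not overlap, but the gap between control mouse 1 and restricted mouse 3 was only 0.18. The difference was -1.29 ± 0.39 (SE, limma adjusted p = 0.0482), a 2.44-fold lower signal. Its near repeat A_55_P1961270 (chromosome 4, 43460596 to 43460655) read -1.67, -0.93 and -0.57 against -2.80, -1.95 and -1.66. There control mouse 1 and restricted mouse 3 met, and the difference of -1.08 ± 0.38 (limma adjusted p = 0.0782) did not pass. Sema4d, which encodes a semaphorin that binds CD72, fell by 2.22 ± 0.37 (SE, limma adjusted p = 0.00533). The call of A_55_P2180415 ended under 9 of 17 alternatives, including leaving out any mouse other than control mouse 1 (limma adjusted p 0.0512 to 0.137).

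Cd37, a tetraspanin of B cells that other leukocytes also carry, fell by both probes. A_55_P2118570 (NM_007645, mm9 chromosome 7, 52489002 to 52489061) read -0.34, -0.09 and -0.07 in the control mice and -1.19, -1.33 and -0.91 in the restricted mice. The mice of a diet lay close together and the diets apart. The difference was -0.97 ± 0.19 (SE, limma adjusted p = 0.00976), or 1.96-fold. A_55_P2174490 (chromosome 7, 52490054 to 52490113) read -3.60, -3.43 and -3.77 against -5.46, -5.58 and -5.41, and was not well above background in any restricted mouse. Its fitted difference was -1.89 (limma adjusted p = 0.000608). As a bound that was not itself tested, it was at least 2.51-fold lower. For this bound the restricted mice were set at the lowest signal well above background on their arrays wherever their own was below it. The call of A_55_P2118570 ended with the slide as a block and on slide 1 alone (-1.02 in both, limma adjusted p = 0.0644 and 0.0955), and that of A_55_P2174490 with normexp background correction (-0.26, 0.311).

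Btla, an inhibitory receptor of B cells, T cells and dendritic cells that binds the TNF receptor family member Tnfrsf14, fell 3.99-fold. Its probe is at mm9 chromosome 16, 45252905 to 45252964 (NM_001037719), and its first 30 bases are shown because it was called lower under all 18 alternatives tried.
Btla A_55_P1964648: gccaatcacatagcatttatgctcttattc

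Btla read -2.15, -1.53 and -2.30 in the control mice and -4.13, -4.24 and -3.59 in the restricted mice. Each restricted mouse was below each control mouse, with a gap of 1.29. The mean was -1.99 ± 0.41 against -3.99 ± 0.35 (SD, n = 3 each), a 3.99-fold lower signal (SE 0.28 on the log2 scale, limma adjusted p = 0.0027). Over the alternatives its difference was -2.33 to -0.83 and its adjusted p 0.000529 to 0.0267. The ligand Tnfrsf14 measured 0.08 ± 0.19 (limma adjusted p = 0.801).

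Of the genes that act inside the cell, Bank1, a scaffold that links the B cell receptor to calcium release, fell by both probes, which share no run longer than 7 bases. A_52_P277104 (NM_001033350, mm9 chromosome 3, 135716867 to 135716926) read -2.39, -1.08 and -0.77 in the control mice and -4.39, -2.93 and -2.78 in the restricted mice. A_55_P2142430 (chromosome 3, 135727078 to 135727137) read -2.60, -1.29 and -1.32 against -5.40, -3.27 and -3.26, and restricted mouse 1 was not well above background there. Mouse 1 of each diet was the lowest of its group by both probes, and no restricted mouse reached a control mouse. The differences were -1.96 ± 0.56 (SE, limma adjusted p = 0.0394) and -2.24 ± 0.64 (limma adjusted p = 0.0405). Both calls ended with normexp background correction (-0.94 and -0.91) and without a background filter (limma adjusted p = 0.0737 and 0.0758). They also ended without control mouse 2 or 3 or restricted mouse 1 or 2 (limma adjusted p 0.0512 to 0.125). Without restricted mouse 1 the differences were -1.45 and -1.53.

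Pou2af1 encodes OBF-1, a coactivator that joins the octamer-binding POU factors on B cell promoters and is needed for germinal centres. Its probe (NM_011136, mm9 chromosome 9, 51048121 to 51048180) read -2.91, -2.50 and -2.82 in the control mice and -4.42, -4.59 and -3.92 in the restricted mice. The diets were 1.02 apart at their nearest mice, more than the range within either. The difference was -1.57 ± 0.23 (SE, limma adjusted p = 0.00341), a 2.97-fold lower signal. Of 18 alternatives, normexp background correction ended the call (-0.40, limma adjusted p = 0.169). The partner factor Pou2f2 (OCT2) measured -0.56 ± 0.37 (limma adjusted p = 0.307) by its brighter probe.

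Vpreb3, which binds immunoglobulin chains in precursor B cells, was the 1 member that rose. The first 30 bases of its probe (NM_009514, mm9 chromosome 10, 75412326 to 75412385) are shown because it was the member called higher.
Vpreb3 A_55_P2136906: gtcaaccactgtcctgagaactgtgagatc

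Vpreb3 read -3.96, -3.76 and -3.44 in the control mice and -2.18, -0.96 and -1.24 in the restricted mice. Each restricted mouse was above each control mouse, with a gap of 1.26. The mean went from -3.72 ± 0.26 to -1.46 ± 0.64 (SD, n = 3 each), a 4.81-fold higher signal (SE 0.34 on the log2 scale, limma adjusted p = 0.00347). The call held under all 18 alternatives, with differences of 1.27 to 2.63 and adjusted p of 0.000689 to 0.0425. Of its family and of the same stage, Vpreb1 measured 0.09 ± 0.44 (limma adjusted p = 0.899) and Vpreb2 -0.25 ± 0.58 (0.783), and Rag1 and Rag2, the recombinase genes of precursor lymphocytes, were not well above background on any array.

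**Figure D2:**
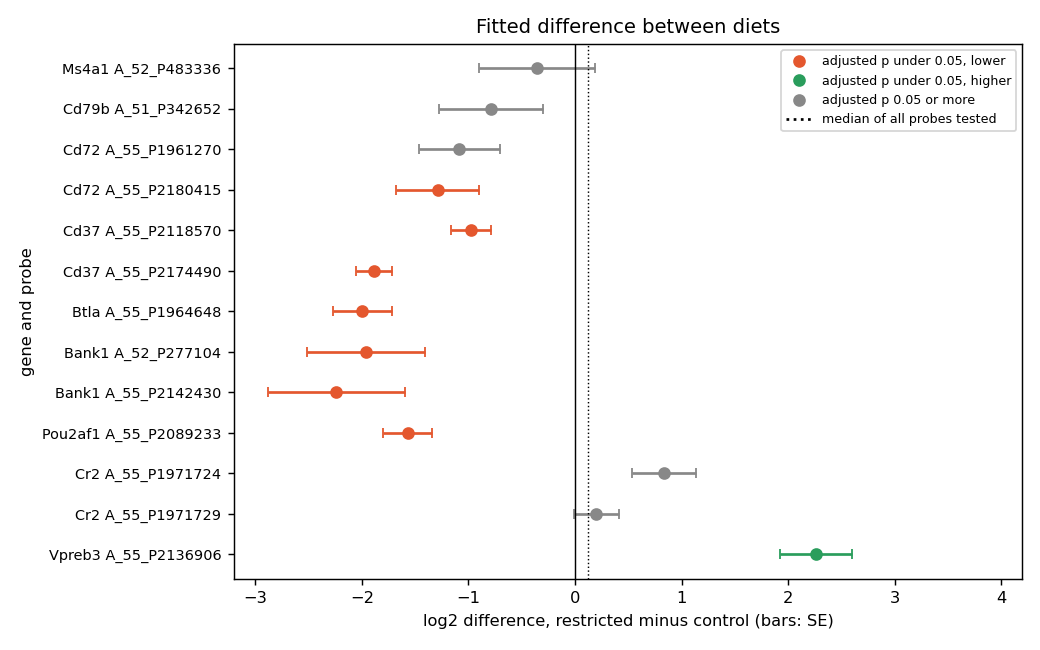
The fitted log2 difference (restricted minus control, horizontal axis) of each probe with its SE, coloured by call. The 7 probes called lower lie between -2.24 and -0.97, Vpreb3 lies at 2.26, and the dotted line marks the median of all tested probes at 0.12.

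Mice of 1 diet differed among themselves in the same way for several members. Control mouse 1 was the lowest control for 9 of 13 probes, and restricted mouse 1 the lowest restricted mouse for 8. For Ms4a1, Cd79b, Vpreb3 and both probes of Cd72 and of Bank1, each of these mice was the lowest of its diet. Btla, Pou2af1 and both Cd37 probes did not show this in the restricted group. The mean over the 9 genes, 1 probe each, was between -2.50 (mouse 1) and -1.95 (mouse 3) in the control mice and -3.36, -2.79 and -2.39 in the restricted mice. Its groups overlapped, since restricted mouse 3 was above control mouse 1. With the slide as a block, which sets restricted mouse 1 against the control mice, the differences of Cd79b (-1.82, limma adjusted p = 0.0438) and of Cd72 A_55_P1961270 (-1.75, 0.0481) passed.

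Over the 6 arrays the genes most like that mean included Tead2, Plcd3, Cryab and Lck, with Pearson correlations of 0.993 to 0.999 among 13118 genes compared. Lck, the kinase of the T cell receptor, measured -0.91 ± 0.32 (limma adjusted p = 0.0745). Tead2 (-0.75), Plcd3 (-0.48) and Cryab (-0.48) were not called either (limma adjusted p 0.125 to 0.173). A correlation above 0.95 was reached by 118 genes (0.9%). The points share the scaling of the arrays, the difference between diets and the order of the mice within a diet.

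**Figure D3:**
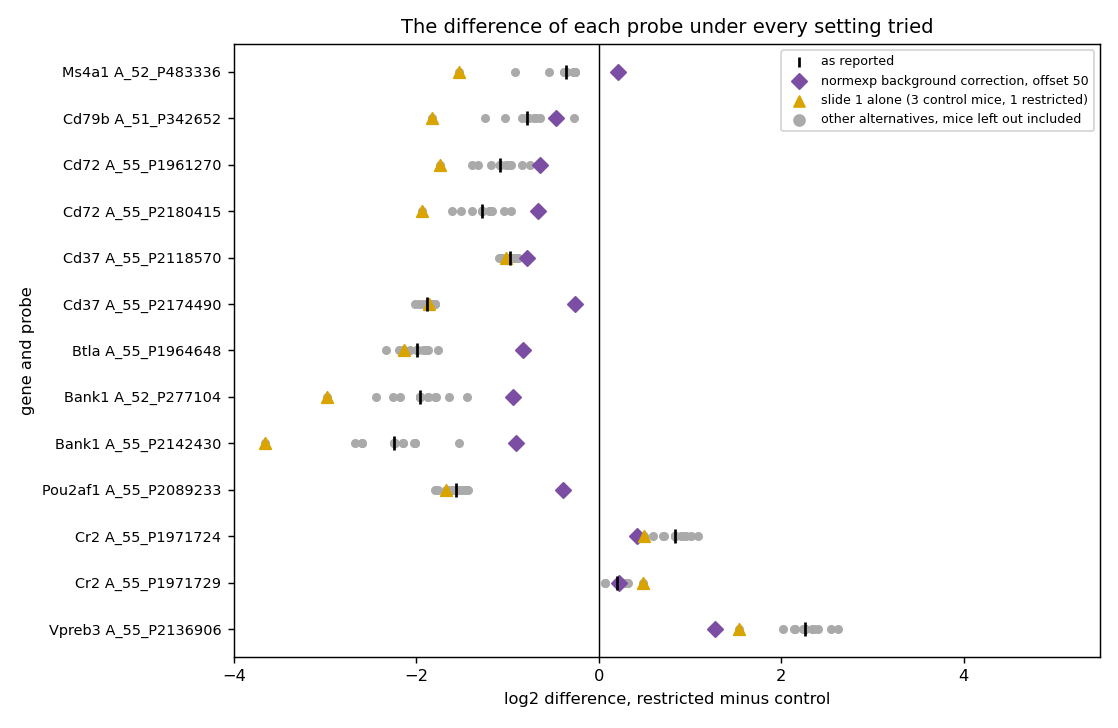
The log2 difference (horizontal axis) of each probe as reported and under each alternative, with normexp background correction and slide 1 alone marked. Ms4a1 is the gene that crosses 0, and normexp background correction gives values nearer 0 for 12 of the 13 probes.

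Promoters were compared because Pou2af1 acts at octamers and because several members moved together. RefSeq promoters on GRCm38.p6 matched 7 of the 9 members, all but Ms4a1 and Cd79b. Motifs were searched on both strands in the 250 bases before the start site: the octamer ATGCAAAT, the purine-rich core GAGGAAGT bound by PU.1 and other ETS factors, and the palindrome of EBF1. The ETS core was found in Cd72, Cd37 and Btla, 3 of the 7, and in 2.44% of 32851 promoters. The octamer was found in Vpreb3 alone of the 7 and in 1.6% of promoters, and the EBF1 palindrome in none of the 7 and in 0.779%. These matches lay in 4 promoters, 1 in each. The last 100 bases before the start site are shown for the 4 promoters with a match, on the strand of the gene, with the match in capitals (ACTTCCTC and ATTTGCAT are the reverse complements).
Cd72, chr4:43454627-43454726, minus strand: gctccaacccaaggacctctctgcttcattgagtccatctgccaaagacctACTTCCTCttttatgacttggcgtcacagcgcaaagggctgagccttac
Cd37, chr7:45238840-45238939, minus strand: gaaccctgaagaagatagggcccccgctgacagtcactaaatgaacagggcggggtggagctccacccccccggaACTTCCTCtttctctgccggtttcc
Btla, chr16:45224237-45224336, plus strand: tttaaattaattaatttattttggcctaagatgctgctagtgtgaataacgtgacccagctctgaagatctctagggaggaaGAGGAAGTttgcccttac
Vpreb3, chr10:75948200-75948299, plus strand: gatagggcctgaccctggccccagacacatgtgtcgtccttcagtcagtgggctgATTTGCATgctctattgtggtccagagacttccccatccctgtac

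The matches began 49, 25 and 18 bases before the start site in Cd72, Cd37 and Btla and 45 bases before it in Vpreb3. The 3 genes with the ETS core had a probe that fell, and so did Bank1 and Pou2af1, which do not hold it in this window. The gene of PU.1 itself, Spi1, which macrophages and B cells express, read -3.45, -3.44 and -2.92 in the control mice. It was not well above background in any restricted mouse. Its fitted difference was -2.54 (limma adjusted p = 0.000916), and the bound, which was not itself tested, was at least 3.15-fold lower. A match is a run of letters and no measured binding. Whether the motif or Spi1 has a part in these decreases was not tested.

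Other genes of B cells were read from lists, with 1 probe per gene, the brightest tested; on this count 12.8% of all genes tested were called lower and 14.4% higher. Of the defining markers, Cd79a was well above background on 3 of 6 arrays and Pax5 (the factor that fixes B cell identity) on 1 by its brighter probe, so neither was tested. Cd22, an inhibitory receptor of B cells, measured -0.03 ± 0.24 (limma adjusted p = 0.934). With Ms4a1 and Cd79b not called, no defining B cell marker that was tested was called lower. Cd79b was still lower on average under all 18 alternatives (-1.82 to -0.27). All 8 hepatocyte markers of the labelled tissue were well above background on all 6 arrays. The probes of Cyp2e1, Ttr and Alb were saturated on all 6 arrays and those of Apoa1 and Hnf4a on 1, so a difference between the diets cannot be read from the first 3; Apob, Cps1 and Tat, saturated on none, were not called.

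Among 19 other identity and surface genes, 13 were tested, 4 were called lower and none higher, with a median of -0.29. Cd24a, a glycoprotein of many cell types, fell by 3.82 and Ly86, the partner of the B cell Toll-like receptor homologue Cd180 and also made by macrophages, fell by 2.54. Cd40, the receptor of T cell help, fell by 1.45 (limma adjusted p = 0.0337) and was well above background in 1 of the restricted mice. Of 14 B lineage transcription factors 12 were tested, 4 fell and 1 rose, with a median of -0.57. Irf4, a factor of activated B cells, plasma cells and dendritic cells, was at least 11.5-fold lower, Irf8, of B cells and myeloid cells, fell by 1.40, and the others that fell included Spi1. Ikzf3, a zinc finger factor of mature B cells, was the 1 that rose, by 0.68 (limma adjusted p = 0.0323).

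Of 16 genes of B cell receptor signalling, all tested, 12 were called lower and none higher, with a median of -2.51. Vav1, an exchange factor, fell by 2.51 ± 0.17, Btk, a kinase whose loss blocks B cell development in people, by 2.60 ± 0.19, and Syk, the kinase that binds the phosphorylated CD79 chains, by 2.99 ± 0.26 (SE, limma adjusted p 0.000315 to 0.000552). These genes also act in Fc receptor signalling of macrophages. Of 9 precursor B cell genes 7 were tested and 2 fell: Il7r, a cytokine receptor that T cells also carry, by 2.48 (well above background in 1 restricted mouse) and Lef1, where the bound was at least 1.06-fold.

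Of 11 plasma cell and immunoglobulin genes 9 were tested, 4 fell and none rose, with a median of -0.82. Jchain, which joins secreted IgM and IgA, fell by 1.77 ± 0.34, Mzb1, a chaperone of immunoglobulin assembly, by 1.18 ± 0.25, and Derl3, of protein degradation in the endoplasmic reticulum, fell by 2.82 ± 0.62 (SE, limma adjusted p 0.00956 to 0.0156). Of 14 ligands, partners and attractants of B cells 12 were tested, 6 fell and 2 rose, with a median of -1.39. Cxcl13, the chemokine that draws B cells into follicles, fell by 3.77, with 2 of the 3 restricted mice well above background, Icosl, a costimulatory ligand, fell by 3.89 and Ccr7, the receptor that guides lymphocytes and dendritic cells to lymphoid tissue, fell by 2.84. The 2 that rose were the chemokines Ccl21a (2.07, limma adjusted p = 0.0241), a ligand of CCR7, and Cxcl12 (0.99, 0.0294).

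**Figure D4:**
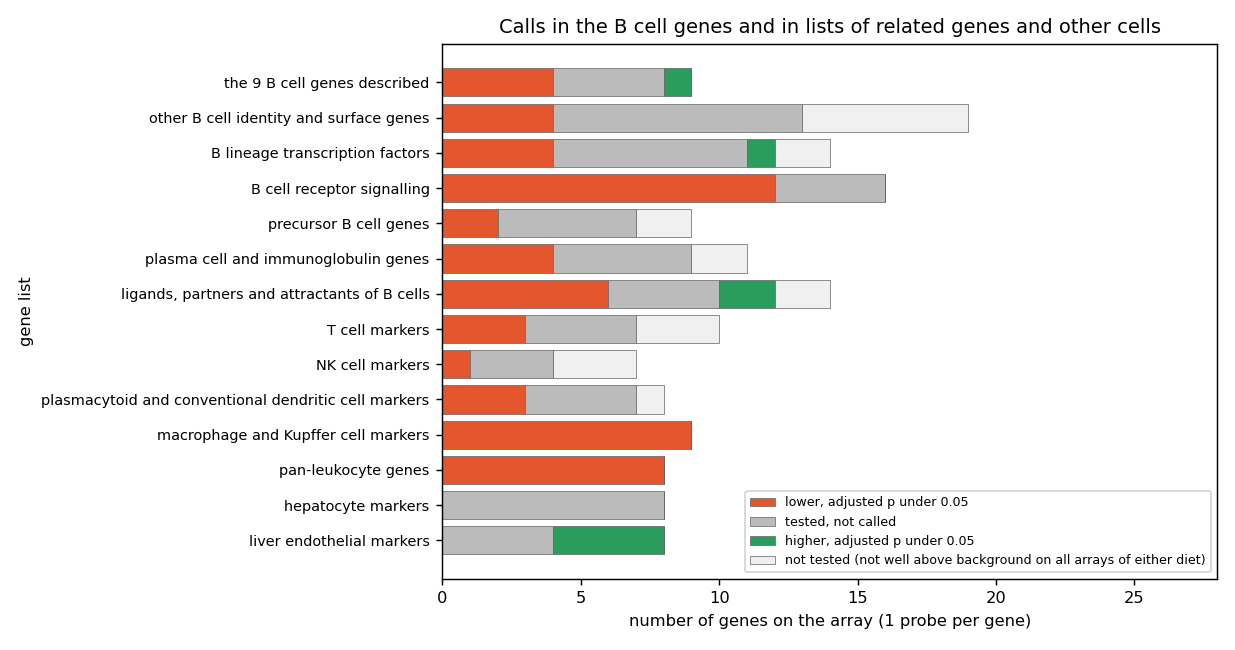
The number of genes (horizontal axis) of each list that were called lower, called higher, tested without a call, or not tested because they were not well above background on all arrays of either diet. Of the 9 B cell genes 4 are called lower and 1 higher by their brightest probe, while 8 of 8 pan-leukocyte genes and 9 of 9 macrophage and Kupffer cell markers are called lower. Siglech, C3 and 3 hepatocyte markers, saturated on all 6 arrays, are counted as tested without a call.

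Pan-leukocyte genes and macrophage markers fell throughout, T cell and dendritic cell markers in part, and of the NK cell markers only Klrd1. All 8 pan-leukocyte genes fell, with a median of -3.17, and their summed signal, in multiples of the 75th percentile, was 54.5 to 68.1 in the control mice and 4.46 to 8 in the restricted mice. Ptprc (CD45), carried by B cells and other leukocytes alike, read -0.30, -0.17 and -0.37 against -3.77, -2.83 and -2.94 and fell by 2.90 ± 0.27 (SE, limma adjusted p = 0.000652), Laptm5 fell by 3.60, Rac2 fell by 3.09 and Itgb2 fell by 2.83. All 9 macrophage and Kupffer cell markers fell (median -2.22, summed signal 200 to 271 against 36.4 to 52.5), and of these Marco fell by 3.55, Vsig4 fell by 2.78 and Clec4f fell by 2.24.

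Of 8 dendritic cell markers 7 were tested and 3 were called lower: Itgax fell by 4.77, Cd209a fell by 3.70 and Flt3 fell by 2.07, with a summed signal of 121 to 182 against 144 to 218. Of that sum 112.3 to 171.8 in the control mice and 142.5 to 217 in the restricted mice came from the Siglech probe, which was saturated on all 6 arrays, so the sum does not follow the other genes. Of 10 T cell markers 7 were tested and 3 fell, Cd5 by 0.85, Cd3d by 1.33 and Cd3g by 1.46 (well above background in 2 of 3 restricted mice), while Cd3e measured 0.32 ± 0.24 (limma adjusted p = 0.365); the summed signal was 28.9 to 45.5 against 24.7 to 36.1. Klrd1 fell by 2.36 and was the 1 call among 4 tested of 7 NK cell markers (3.11 to 4.36 against 3.75 to 4.43). The median of the 4 was -0.12. Gzma measured -0.32 ± 0.35 (limma adjusted p = 0.538), Nkg7 0.23 ± 0.21 (0.448) and Prf1 0.08 ± 0.17 (0.758). A few bright probes carry most of a summed signal. For the 9 B cell genes it was 2.23 to 3.44 against 1.28 to 2.31. Of 8 liver endothelial markers 4 rose, among them Oit3 by 2.08, Clec4g by 1.86 and Lyve1 by 1.97 (22.1 to 33.9 against 38.4 to 51.7). The others were not called: Cdh5 measured -0.73 ± 0.30 (limma adjusted p = 0.121) and Stab2 -0.20 ± 0.17 (0.424). Kdr measured 0.48 ± 0.33 (0.327) and Pecam1 0.52 ± 0.17 (0.0668). The part of other leukocytes in the decreases of Cd37, Cd72, Btla, Bank1 and Pou2af1 was not tested, and in bulk tissue fewer cells of a type and less RNA per cell cannot be told apart.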

How the data were processed

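The labels and deposited files describe 6 single-colour Agilent arrays of design 026655 with probe coordinates on mm9. The authors' scanner files hold intensity values, processed signals that Agilent Feature Extraction 10.7.3.1 background-subtracted and detrended, per the file headers, although version 9.3.2.1 stands in the submitters' processing notes. The authors' value table holds the same intensity on a linear scale, within 0.1% for 99.8% to 99.87% of probes (column medians 27.52 to 52.12).

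The deposited intensity was turned into log2 values without outlier spots (127 to 251 per array), with 1 mean per probe, minus the 75th percentile of each array. Probes well above background on all arrays of at least 1 diet were kept (24234 of 39429) and the diets were compared with limma 3.58.1 in R 4.3.3, with Benjamini-Hochberg adjustment over these probes and a call at 0.05. The scripts were tested on simulated data. The 3 arrays per diet limit the precision; labels name separate mice. Symbols of list genes were updated through RefSeq accessions, which 26055 probes matched.

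The members and lists were chosen with earlier results of these data known. Named were all members, the defining markers, up to 3 called genes of each list with the smallest p (without a call, the 2 brightest) and the 5 genes most correlated with the members' mean; a marker and a gene that this rule names are not reported here. Ikzf3, Ccl21a, Cxcl12, Gzma, Nkg7, Prf1, Cdh5, Stab2, Kdr and Pecam1 were named after their values were seen. Sema4d, C3, Pou2f2, Tnfrsf14, Vpreb1, Vpreb2, Rag1 and Rag2 were added afterwards as partners or relatives of members.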

Additional observations from a re-analysis of the deposited data

How the results depend on the processing

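Of 227 refits of single member probes under alternative settings, 190 kept direction and side of the threshold, 25 lost the call, 10 gained it and 2 reversed, both for Ms4a1 (0.21 with normexp background correction; -0.92 to 0.23 with 1 mouse left out, the latter without restricted mouse 1). The count of member probes called lower was 7, and it was 2 with normexp background correction, whose offset of 50 is of the order of the arrays' median signals (27.51 to 52.04), 4 without a background filter, 4 with 1 probe per gene (9 probes tested) and 4 at an adjusted p under 0.01. The count called higher was 1, and 2 with quantile normalization, median scaling or array weights. All probes called numbered 6456, and 10068 with array weights, 3548 with the slide as a block, 2708 on slide 1 alone (1 restricted mouse, taken to vary like the controls) and 3039 at an adjusted p under 0.01. Leaving out 1 mouse gave 4 to 7 member probes lower, 1 to 2 higher and 3961 to 7041 probes called in all; 4 were lower without control mouse 2 or 3 or restricted mouse 1 or 2. Deviations of same-numbered mice correlated at 0.386, 0.002 and 0.484, and those of differently numbered mice at -0.505 to 0.116. Whether mouse numbers pair the arrays cannot be told from 3 mice per diet. With mouse number as a replicate block, 8 member probes were lower, 2 higher and 8080 were called in all. Why these calls changed was not tested. Signals not well above background on every array limit Ms4a1, A_55_P2142430 of Bank1 and A_55_P2174490 of Cd37. Other probes were well above background but dim. In the restricted mice Pou2af1 read -4.59 to -3.92 and Btla -4.24 to -3.59, where the dimmest signals well above background were -5.12 to -4.80. In the control mice A_55_P1971724 of Cr2 read -4.92 to -4.16, beside -5.54 to -5.18.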
